A study of Mus musculus with 16 samples.

Results

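Nuclear genes for the proteins of the mitochondrial ribosome were followed through 16 RNA-seq libraries of hematopoietic stem cells (HSCs) from mouse bone marrow. They were taken by symbol, as every row of the count table named Mrpl or Mrps with a number and at most 1 letter, and pseudogene names were dropped. This gave 78 of 25239 genes, 49 named for the large and 29 for the small subunit, and all 78 had enough counts to be tested. Mrps36 is counted among them by name, although its product belongs to the oxoglutarate dehydrogenase complex, and the products of Mrps18a and Mrps30 sit in the large subunit.

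The mitochondrial ribosome translates the few proteins that mitochondrial DNA encodes, all of them subunits of the respiratory chain and ATP synthase. Its ribosomal RNA comes from mitochondrial DNA, whereas its proteins are made in the cytosol from nuclear genes and imported. Part of these proteins descend from bacterial ribosomal proteins and the rest were added in the course of mitochondrial evolution. HSCs at rest rely largely on glycolysis, and mitochondrial activity is known to increase when they leave quiescence.

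The cells came from mice aged 4 to 6 months and carried an intact Selp gene (WT) or its knockout (KO). Selp encodes P-selectin, an adhesion receptor, and PSGL-1 is its ligand. Freshly sorted cells gave 3 WT and 2 KO libraries, vehicle culture gave 3 WT and 3 KO, and 24 hours of culture with 125 ng/mL PSGL-1 gave 2 WT and 3 KO. The culture medium was StemSpan with serum, SCF, IL-11 and Flt-3 ligand, and how long the vehicle cultures were kept was not found in the sources used here. The labels do not tie the libraries of a group to separate mice, and each p-value therefore reflects the spread among these libraries alone, part of which may be technical.

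Library totals ran from 12590539 to 24690824 counts. Selp itself was at 16.3 to 188 CPM, counts scaled to a common library total, in the 8 WT libraries and at 0 to 12.5 CPM in the 8 KO libraries, without overlap. All 10 HSC markers examined, among them Kit and Procr, had counts in every group, although Slamf1 was at 0 in 3 libraries and Tek and Fgd5 in 1 each. Their summed level was 1281 to 2691 CPM. One library, WT PSGL-1 replicate 1, stood apart: 36.6% of the tested genes had 0 counts in it. The 2 KO fresh libraries also differed from each other in the genes described here, as given below.

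Promoter windows from RefSeq (GRCm38.p6, 250 bases before to 50 after the start site) were matched by symbol and found for 69 of the 78 genes, in 75 windows. The 4 windows below belong to the members ranked first by the larger of their WT and KO p-values in vehicle culture against fresh cells, none of which passed the threshold, and they show the short factor motifs that were searched in all 75. Capitals mark the motifs searched on either strand. These were an NRF1 core (GCGC, any base, TGCGC), an ETS/GABP core (CCGGAAG), a YY1 core (AAGATGG), an E box (CACGTG), an NF-Y box (CCAAT) and a GC box (GGGCGG). The windows lie at chr13:99344536-99344835 (plus strand, Mrps27), chr17:12916042-12916341 (minus strand, Mrpl18), chr6:71823735-71824034 (minus strand, Mrpl35) and chr1:79775768-79776067 (plus strand, Mrpl44).
Mrps27: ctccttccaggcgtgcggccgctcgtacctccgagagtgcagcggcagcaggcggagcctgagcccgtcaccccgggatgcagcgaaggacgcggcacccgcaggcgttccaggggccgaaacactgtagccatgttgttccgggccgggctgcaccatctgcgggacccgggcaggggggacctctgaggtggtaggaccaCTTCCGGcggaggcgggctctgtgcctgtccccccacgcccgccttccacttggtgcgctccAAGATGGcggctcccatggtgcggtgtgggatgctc
Mrpl18: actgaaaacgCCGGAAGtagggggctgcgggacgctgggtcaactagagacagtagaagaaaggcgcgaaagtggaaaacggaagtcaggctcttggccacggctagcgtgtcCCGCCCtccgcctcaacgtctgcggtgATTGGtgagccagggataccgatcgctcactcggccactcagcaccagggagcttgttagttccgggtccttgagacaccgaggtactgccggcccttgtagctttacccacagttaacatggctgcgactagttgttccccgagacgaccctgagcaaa
Mrpl35: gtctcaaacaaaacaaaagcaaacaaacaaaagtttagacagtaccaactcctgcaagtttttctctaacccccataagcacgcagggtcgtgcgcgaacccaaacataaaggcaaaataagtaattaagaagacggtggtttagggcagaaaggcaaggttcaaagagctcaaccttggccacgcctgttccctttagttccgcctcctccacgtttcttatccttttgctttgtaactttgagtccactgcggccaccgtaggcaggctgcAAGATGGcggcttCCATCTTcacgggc
Mrpl44: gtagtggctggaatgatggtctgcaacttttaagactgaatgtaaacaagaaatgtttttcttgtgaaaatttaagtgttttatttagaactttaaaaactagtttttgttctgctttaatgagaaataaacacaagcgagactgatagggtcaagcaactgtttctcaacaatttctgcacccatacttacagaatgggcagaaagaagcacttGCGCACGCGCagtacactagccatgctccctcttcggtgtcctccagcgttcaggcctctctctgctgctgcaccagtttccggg

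Motifs of NRF1, GABP and YY1, factors known for control of nuclear genes with mitochondrial products, were more frequent in these windows than in the 21263 windows of protein-coding genes. The ETS/GABP core occurred in 34.7% of the 75 windows and in 11.6% of the coding windows. It is carried by Mrps27, 48 bases before its start site, and by Mrpl18, 240 bases before. The NRF1 core occurred in 17.3% against 6.38%, and Mrpl44 holds it 35 bases before its start site. The YY1 core occurred in 17.3% against 6.24%, and in Mrps27 and Mrpl35 it lies after the start site, at bases 15 and 24. Mrpl35 holds a second copy, on the other strand, at base 37.

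The more general motifs were closer to the coding background. The NF-Y box was in 40.0% against 38.2% of windows, the GC box in 52.0% against 46.2%, and the E box in 9.33% against 7.84%. GC content was alike, with a median of 58.7% against 56.3%. At least 1 of the NRF1 and ETS/GABP cores was in 35 of the 75 windows, 46.7%, against 16.7% of coding windows. These matches describe letters in the window only, and windows of 1 gene can overlap.

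**Figure D1:**
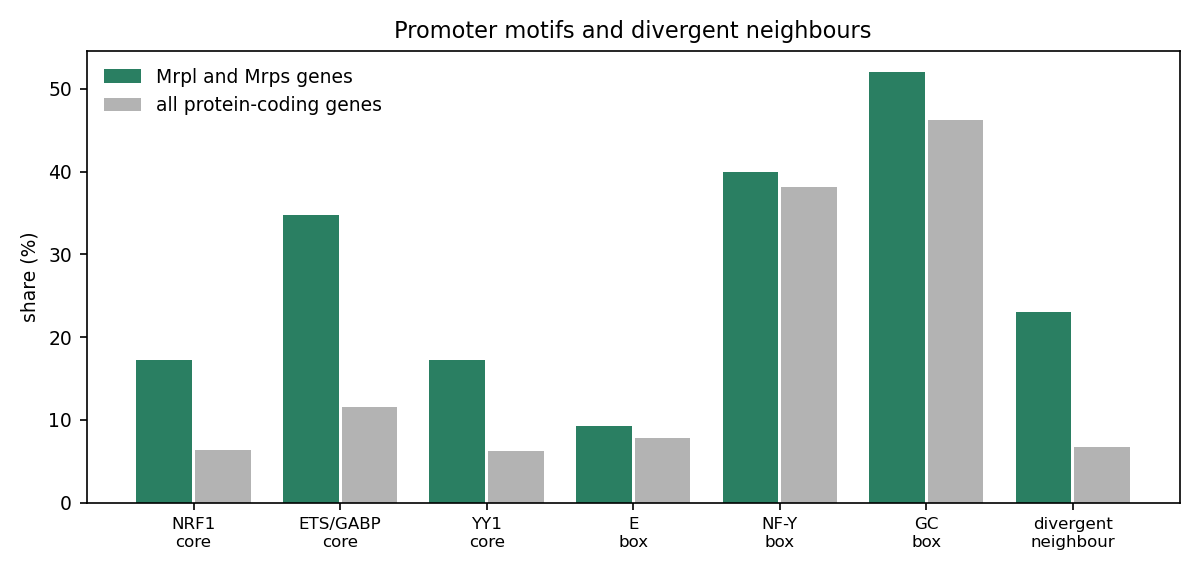
Share (%) of promoter windows that hold each motif, and share of genes with a divergent coding neighbour within 1000 bases upstream, for the Mrpl and Mrps genes (green) and for all protein-coding genes (grey). The green bars of the NRF1, ETS/GABP and YY1 cores and of divergent neighbours stand at 17.3%, 34.7%, 17.3% and 23.1%, against 6.38%, 11.6%, 6.24% and 6.79% for the grey bars.

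The genes were compact and often faced another gene head to head. All 78 matched GENCODE vM21, on 17 chromosomes. Their transcripts had a median length of 1302 bases (418 to 7300), against 2568 for protein-coding genes. A protein-coding neighbour on the other strand started within 1000 bases upstream of the start of 18 of them, 23.1%, against 6.79% of 21951 protein-coding genes. Opposite-strand pairs whose starts overlap were not counted in either share, among them the members Mrps11 and Mrpl46 on chromosome 7. Mrps12 faced Sars2, the mitochondrial seryl-tRNA synthetase, at 172 bases, and Mrps27 faced Ptcd2 at 81 bases. Mrpl49 faced Fau, which encodes a cytosolic ribosomal protein, at 59 bases. Exons of 26 members overlapped another gene, and since no source used here gives the strand setting of the counting, reads there cannot be told apart; this touches many of the genes named below, with the longest overlaps in Mrps25, Mrpl19, Mrpl53, Mrps18b, Mrpl47, Mrps30 and Mrpl24, and also in Mrpl9, Mrpl10, Mrpl12, Mrpl13, Mrpl18, Mrpl33, Mrpl36, Mrpl48, Mrpl49, Mrpl58, Mrps6, Mrps7, Mrps18c, Mrps26 and Mrps27.

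**Figure D2:**
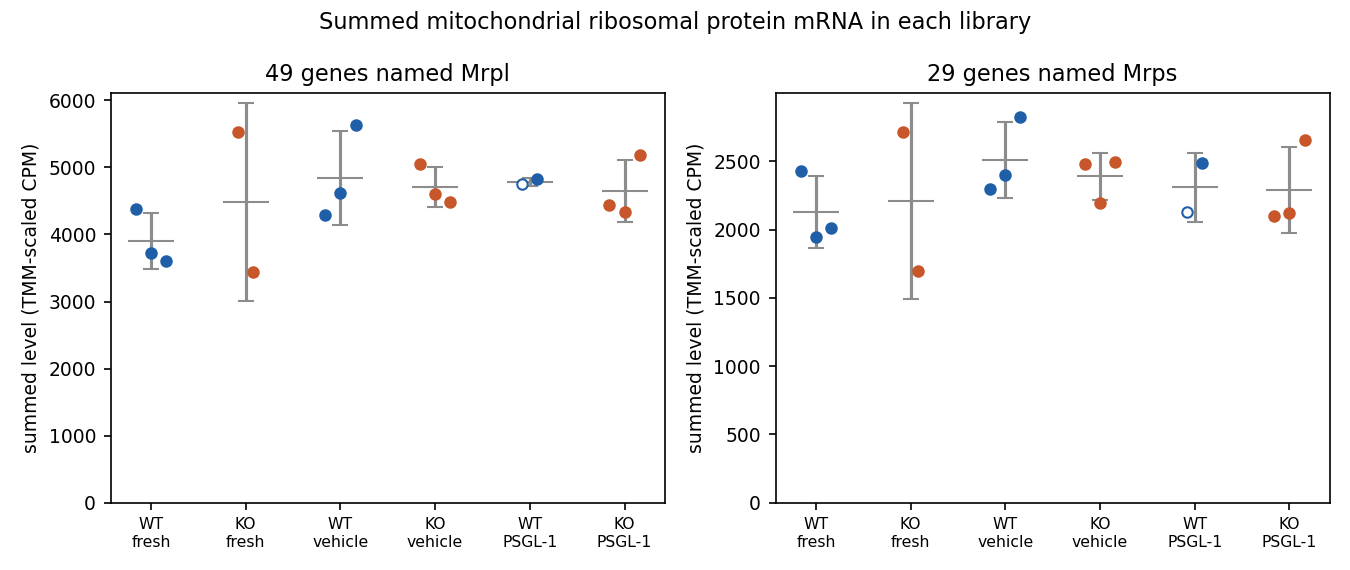
Summed level of the 49 Mrpl genes (left) and the 29 Mrps genes (right) in each library, in CPM after TMM scaling, by group. Points are libraries (blue WT, orange KO, open circle WT PSGL-1 replicate 1), and grey bars are the mean and SD; the KO fresh libraries hold both the highest total of all 78 genes but 1, 8236 CPM, and the lowest, 5133 CPM.

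Together the 78 mRNAs took 0.546% to 0.804% of the counts of a library. Summed levels, in CPM after TMM scaling (trimmed mean of M values), were 6815, 5662 and 5614 in WT fresh cells and 6585, 7022 and 8457 in WT vehicle cultures. In KO cells they were 8236 and 5133 fresh and 7531, 6790 and 6978 in vehicle culture. With PSGL-1 they were 6876 and 7315 in WT and 6536, 6453 and 7841 in KO. Group means lay between 6030 ± 679 in WT fresh cells (SD, n = 3) and 7355 ± 980 in WT vehicle cultures (SD, n = 3). The ranges of these 2 groups overlapped, and the KO fresh pair alone spanned nearly the whole range of the series.

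Per kilobase of transcript, over the 15 libraries without WT PSGL-1 replicate 1, the highest levels belonged to short mRNAs for large-subunit proteins. The length was that of 1 annotated coding transcript per gene. Dividing by it raises short transcripts and lowers long ones, so the ranking partly restates length. The transcript of Mrpl52 has 418 bases and that of Mrps25 has 6073. By CPM alone Mrpl12 was highest, at 203. Mrpl52 was at 299 ± 74.6 CPM per kilobase (SD, n = 15), Mrpl42 at 247 ± 48.3, Mrpl33 at 224 ± 62.4, Mrpl34 at 220.2 ± 62.7 and Mrpl28 at 169 ± 33.4. The lowest were Mrpl47 at 8.26, Mrpl1 at 9.94, Mrps25 at 11.1, Mrps35 at 13.8 and Mrpl19 at 15.5. The SDs of the 4 highest overlap, so their order is not fixed by these libraries. The median level per kilobase was 57.6 for Mrpl and 48.5 for Mrps names, and 68.8 for proteins with a bacterial counterpart against 44.4 for those without. This split, also used for culture below, was written by hand from the naming of mitochondrial ribosomal proteins. It counts Mrps18a and Mrps18b as without a counterpart, although they are paralogs of Mrps18c, which is counted as having one.

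The stalk of the large subunit, which recruits translation factors, was represented by Mrpl12, Mrpl10 and Mrpl11. Mrpl12, whose product also binds the mitochondrial RNA polymerase, was at 158 ± 53.1 CPM in WT fresh cells (SD, n = 3) and at 231 ± 57.3 in WT vehicle cultures (n = 3). In KO cells it was at 238 and 107 CPM in the fresh libraries and at 224 ± 30.8 in vehicle culture (n = 3). Mrpl10 lay at 71.0 ± 16.5 in WT fresh and 88.0 ± 28.2 in WT vehicle cells, and Mrpl11 at 69.6 ± 19.3 and 69.0 ± 28.4. All of these groups overlapped.

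Other members with distinct roles were followed in the same groups. Mrps12, part of the decoding centre, was at 99.5 ± 14.1 CPM in WT fresh and 99.4 ± 14.8 in WT vehicle cells (SD, n = 3 each). Mrps2 and Mrps5 of the small subunit were at 76.4 ± 14.7 and 87.3 ± 9.02 in WT fresh cells and at 96.1 ± 19.6 and 102 ± 19.1 in WT vehicle cells. Mrpl58, a peptidyl-tRNA hydrolase that frees stalled ribosomes, was at 54.2 ± 18.2 and 63.4 ± 21.8. Mrpl45, which tethers the ribosome to the inner membrane, was at 89.1 ± 14.4 and 78.9 ± 26.5. Of the 3 paralogs that share the name Mrps18, Mrps18a was at 72.0 ± 14.8 and 89.2 ± 42.5, Mrps18c at 57.98 ± 12.3 and 79.6 ± 10.3, and Mrps18b at 50.8 ± 3.57 and 69.5 ± 10.97. Only for Mrps18b among these did the WT vehicle libraries all lie above the WT fresh ones.

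Between replicates the family varied less than the average gene. The SD within groups, pooled over groups and taken on the log2(CPM + 0.5) scale over 15 libraries, had a median of 0.38 for the 78 genes and 0.70 for all tested genes. Their median level was also higher, 80.4 against 29.7 CPM. For cytosolic ribosomal protein genes the median SD was 0.38 at 511 CPM, and for nuclear oxidative phosphorylation subunits 0.34 at 180.4 CPM.

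**Figure D3:**
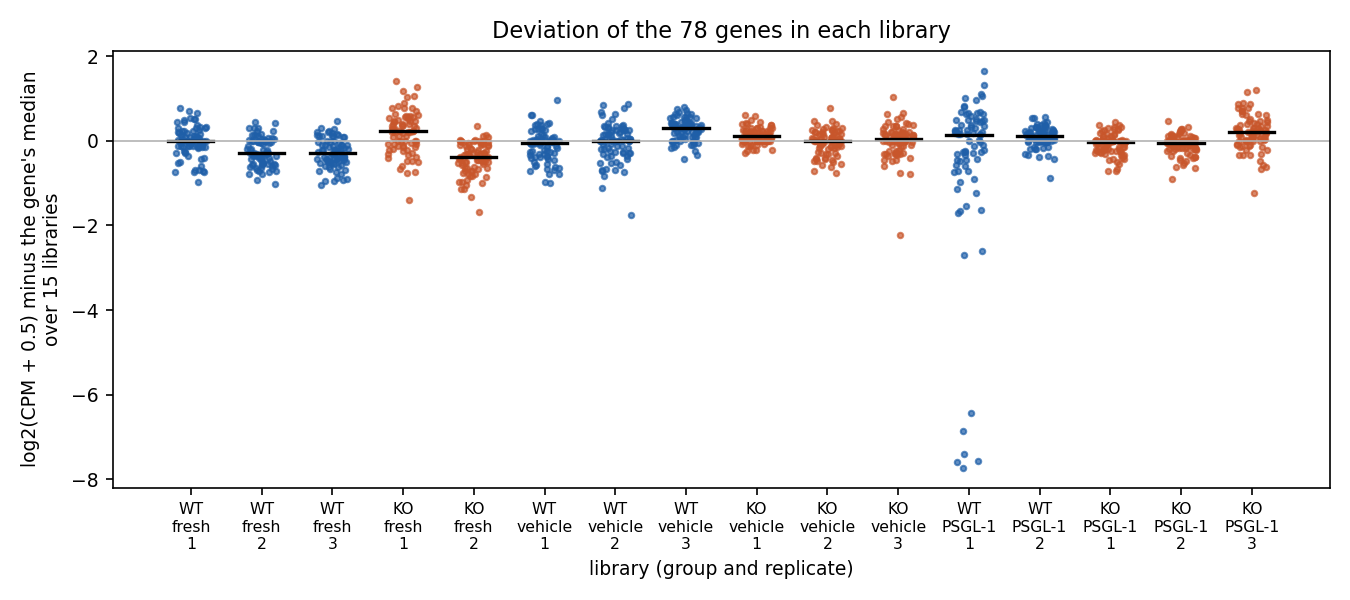
Deviation of each of the 78 genes in each library from its median over 15 libraries (log2(CPM + 0.5) scale); each point is a gene and black lines are the library's median. WT PSGL-1 replicate 1 has a tail down to 5 genes with 0 counts, while KO fresh replicate 2 lies below KO fresh replicate 1 as a whole.

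WT PSGL-1 replicate 1 had members missing that every other library held. Mrps35, Mrpl37, Mrpl45, Mrpl38 and Mrps6 had 0 counts there, which allows at most 3 counts, or 0.169 CPM, and Mrps15 had 2 counts. In the other 15 libraries Mrps15 was at 105 to 171 CPM, Mrpl38 at 79.0 to 133 and Mrpl45 at 60.5 to 139.5. Of the 78 members, 34 lay outside the range of the other 15 libraries in this one, 17 above and 17 below. Its sum over the family, 6876 CPM, was among those of the other libraries.

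The KO fresh libraries differed as a block. Of the 78 members, 63 were higher in replicate 1 than in replicate 2, with a median log2 difference of 0.74, while over 12836 tested coding genes the median was -0.06. In 20 members KO fresh replicate 1 was the highest of all 16 libraries, and in 20 members KO fresh replicate 2 was the lowest. Mrpl23, next to the exit tunnel of the ribosome, was at 231 and 84.5 CPM in this pair, and Mrpl9 at 127 and 52.3. Every KO fresh mean below rests on these 2 libraries.

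Vehicle culture against fresh cells gave no called member in either genotype. With the edgeR quasi-likelihood test and Benjamini-Hochberg adjustment over 14124 genes, 0 of 78 members passed an adjusted p of 0.05 in WT, where 1.64% of all genes did, and 0 of 78 in KO, where 1.77% did. At an unadjusted p under 0.05 there were 6 members in WT and 3 in KO, of 1692 and 1649 genes among all 14124. DESeq2 and limma voom also called 0 members, where they called 804 and 713 of all genes in WT and 832 and 544 in KO. Their members under an unadjusted 0.05 numbered 5 and 12 in WT and 3 and 2 in KO. Shares of all genes under an unadjusted 0.05 were taken for edgeR alone, here and in the comparisons below. Such member counts by DESeq2 and limma voom therefore have no background beside them and are not read as an excess.

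In WT the values nevertheless lay mostly above 0. The log2 fold change was above 0 for 57 of 78 members, with a median of 0.28, against 45.5% of all genes with a median of -0.07. It ranged from -0.91 to 0.97, so that all 78 estimates were within a 2-fold difference, but the 95% interval was inside 2-fold for 30 members. Libraries did not overlap and were higher in culture for 16 members, against 10.3% of all genes, and lower for 2, against 12.7%. Members with a bacterial counterpart had a median of 0.35 (36 of 46 above 0) and those without one 0.13 (21 of 32). Large- and small-subunit names had medians of 0.25 and 0.31.

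The members with the smallest p in WT were core proteins of the large subunit. Mrpl20, an early assembly protein of the bacterial type, was at 85.6, 91.2 and 62.5 CPM in the fresh libraries and at 151, 116 and 172 in vehicle culture. Every cultured library was above every fresh one, and the log2 fold change was 0.88 (SE 0.30, adjusted p 0.22). Mrpl35 was at 32.8, 66.4 and 50.6 fresh and 91.0, 112 and 83.8 in culture, again without overlap (log2 fold change 0.94, SE 0.34, adjusted p 0.24). Mrpl28 was tight in fresh cells, at 135, 137 and 130, and at 215, 166 and 228 in culture (0.60, SE 0.22, adjusted p 0.24). None of the 3 passed the threshold.

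Mrps27, a pentatricopeptide repeat protein of the small subunit, had the highest estimate in WT. It was at 41.3, 45.5 and 34.6 CPM fresh and 66.7, 69.5 and 102 in culture (log2 fold change 0.97, SE 0.38, adjusted p 0.28). Mrpl18, whose product is linked to import of ribosomal RNA, was at 159, 108 and 167 fresh and 167, 236 and 249.8 in culture. Its groups only just did not overlap (0.59, SE 0.25, adjusted p 0.35). Mrpl16, Mrpl4 and Mrps10 followed with log2 fold changes of 0.83, 0.43 and 0.70. At the other end stood Mrps31 at -0.91, Mrpl1 at -0.55, Mrpl23 at -0.45 and Mrps30 at -0.35, with adjusted p from 0.58 to 0.84.

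**Figure D4:**
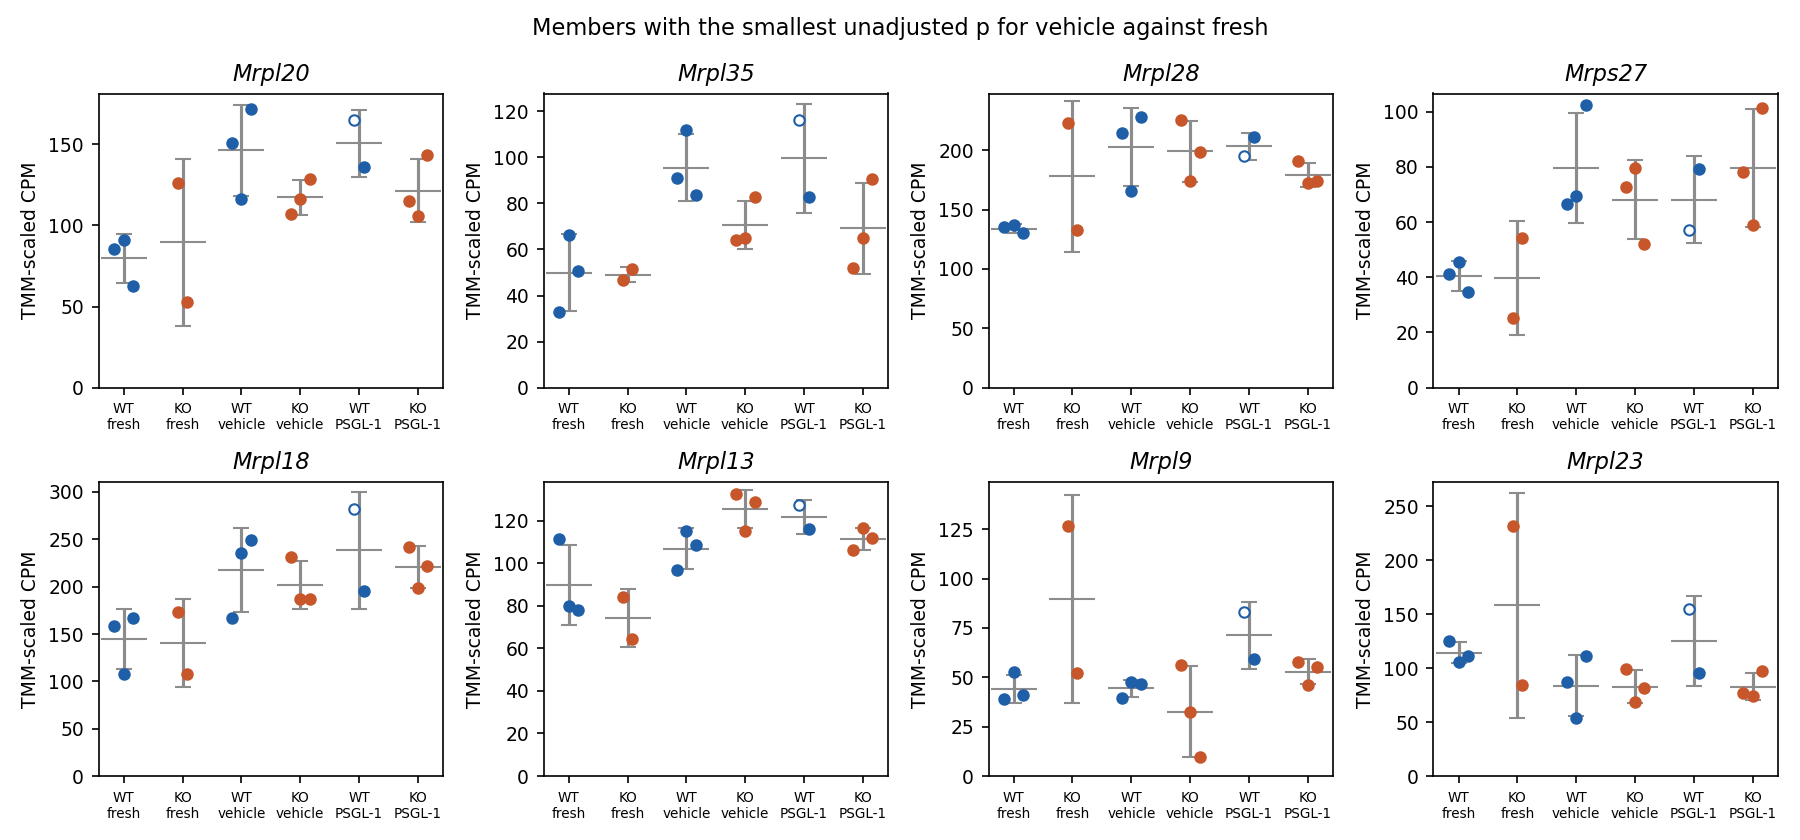
Level (CPM after TMM scaling) of 8 members in each library, by group; points are libraries (blue WT, orange KO, open circle WT PSGL-1 replicate 1), grey bars the mean and SD. Mrpl20, Mrpl35, Mrpl28 and Mrps27 lie higher in the WT vehicle libraries than in the WT fresh ones, whereas Mrpl9 and Mrpl23 are set apart mainly by KO fresh replicate 1, at 127 and 231 CPM.

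In KO cells the log2 fold change with culture was above 0 for 49 of 78 members, with a median of 0.14, against 47.5% of all genes with a median of -0.02. Libraries did not overlap and were higher in culture for 11 members, against 16.3% of all genes, and lower for 0, against 19.0%. The estimates ran from -1.46 to 0.78. Leaving out KO fresh replicate 1 gave a median of 0.42 with 67 members above 0, and leaving out replicate 2 gave -0.12, so its sign depended on which of the 2 libraries stood for fresh KO cells.

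Mrpl13, a large-subunit protein of the bacterial type, had the smallest p in KO. It was at 84.0 and 64.5 CPM fresh and at 132, 115 and 129 in culture, without overlap (log2 fold change 0.76, SE 0.26, adjusted p 0.21). Mrps27, Mrps18b, Mrps25 and Mrpl44, whose product resembles a ribonuclease, had log2 fold changes between 0.75 and 0.78 with adjusted p from 0.50 to 0.67. Mrpl44 was at 51.9 and 70.4 CPM fresh and at 111, 85.1 and 113 in culture. Mrpl18 and Mrpl35 were at 0.52 and 0.53, and Mrpl42 at 0.35.

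The lowest estimate in KO was that of Mrpl9, at 127 and 52.3 CPM fresh and 56.0, 32.2 and 9.79 in culture (log2 fold change -1.46, SE 0.57, adjusted p 0.29). The groups overlapped, and without KO fresh replicate 1 the value was -0.70. Mrpl23 was at -0.93, and at -0.05 without that library. Mrpl34 and Mrpl53 were at -0.46 and -0.69 and turned to 0.22 and 0.37 without it.

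Of the 78 members, 41 had estimates above 0 in both genotypes and 13 below 0 in both, 16 were above 0 in WT alone and 8 in KO alone. Mrpl18, Mrpl35 and Mrps18b were the 3 whose libraries were higher in culture without overlap in both genotypes, against 5.95% of all genes. None was under an unadjusted p of 0.05 in both. The difference between the genotypes' responses, tested as an interaction, called 0 of 78 members by edgeR, DESeq2 and limma voom, with 0, 1 and 0 under an unadjusted 0.05. By edgeR 0% of all genes were called and 2.50% were under an unadjusted 0.05. DESeq2 called 69 of all genes and limma voom 0. The median of this difference over the members was -0.17, with 25 above 0 against 52.0% of all genes. It moved to 0.31 when KO fresh replicate 1 was left out and to -0.38 when replicate 2 was. Without WT vehicle replicate 3 it was -0.01. The lowest and highest interaction values named were Mrpl9 at -1.47 (SE 0.77) and Mrpl1 at 1.21 (SE 0.70).

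**Figure D5:**
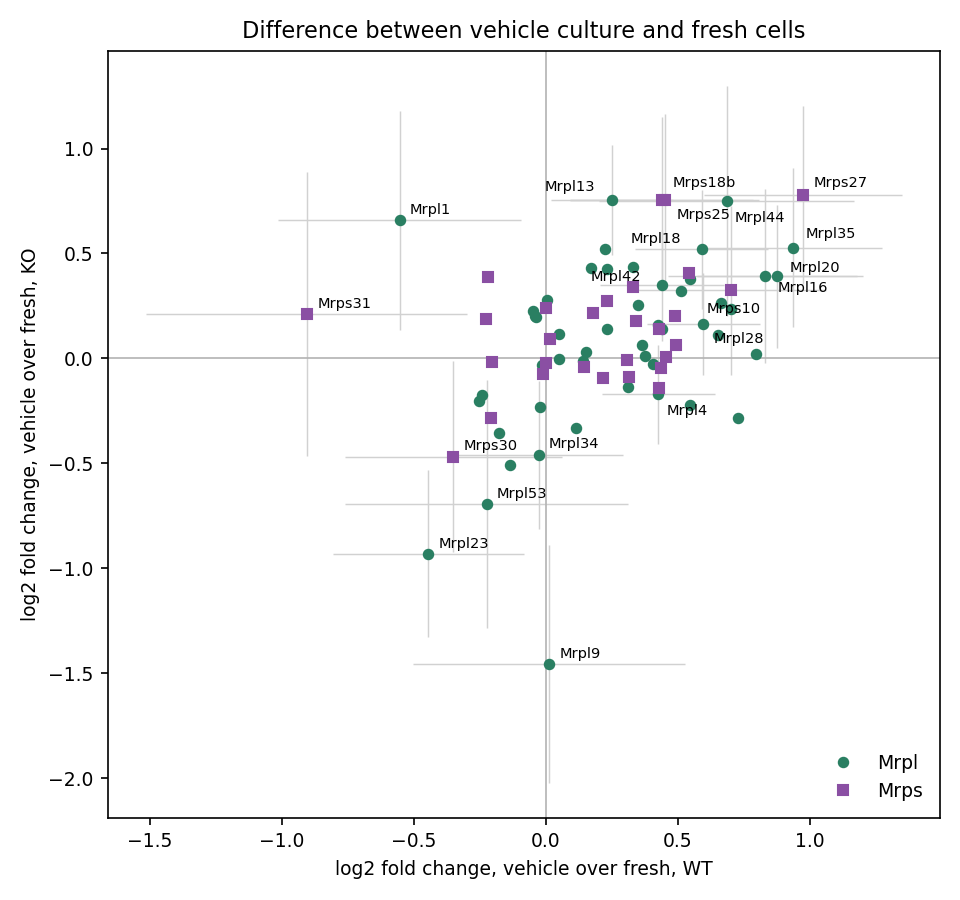
Log2 fold change of each member in vehicle culture over fresh cells, WT on the horizontal and KO on the vertical axis; circles are Mrpl and squares Mrps genes, and bars on the labelled genes are standard errors. Most points lie in the upper right, 41 of 78 above 0 in both genotypes, with Mrpl9 lowest at -1.46 in KO and Mrps31 leftmost at -0.91 in WT.

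Marker sums of HSCs and of granulocytes and monocytes were lower in vehicle than in fresh libraries, without overlap in either genotype. The 10 HSC markers summed to 2076 to 2591 CPM in WT fresh and 1318 to 1842 in WT vehicle libraries, and to 2486 to 2691 in KO fresh and 1943 to 2097 in KO vehicle libraries. The summed level of 10 granulocyte and monocyte markers was 713 to 771 CPM in WT fresh and 125 to 435 in WT vehicle libraries, and 1247 to 1282 in KO fresh and 204 to 249 in KO vehicle libraries. Of these markers only Prtn3 and Lyz2 had counts in every library. Erythroid markers summed to 49.1 to 192 and 5.79 to 54 in WT, and to 47.1 to 87.6 and 4.36 to 10.9 in KO. The globin genes among them, Hba-a1, Hbb-bs and Hbb-bt, were at 0 in all 16 libraries. T and NK cell markers summed to 56.98 to 88.88 and 15.8 to 21.8 in WT, and to 16.1 to 44.7 and 10.4 to 19.1 in KO. Here Cd3e, Cd3d, Cd3g, Cd8a and Ncr1 were at 0 in all 16 libraries. Cd4 reached 5.19 CPM at most, so the sum was mostly that of Nkg7 and does not mark T cells. The part of these shifts in the values of the Mrpl and Mrps genes was not tested. In bulk RNA, fewer cells of a type and less RNA per cell cannot be told apart.

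The rest of the mitochondrial translation apparatus was read from lists of 5 to 27 genes. Only 1 of their genes passed the test, in WT culture, where 1.64% of all 14124 genes did. A single call is not read as a change of the lists. The gene was C1qbp, a matrix protein linked to mitochondrial ribosome assembly, and it was higher in culture. It was at 173, 228 and 194 CPM in fresh and 318, 354 and 402 in vehicle libraries, with no overlap (log2 fold change 0.85, SE 0.17, adjusted p 0.019 by edgeR). Without WT fresh replicate 1, WT fresh replicate 3 or WT vehicle replicate 3 the adjusted p was 0.086, 0.083 and 0.082. In KO it was at 188.5 and 189.7 fresh and 288, 287 and 343 in culture (log2 fold change 0.69, SE 0.19, adjusted p 0.093).

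The other lists held no called gene in either culture comparison. Among the 5 ribosome proteins with other names, which include Dap3 and Ptcd3, the median log2 fold change was 0.17 in WT and -0.44 in KO. Among 15 translation factors it was -0.39 and -0.31. Guf1, a GTPase of mitochondrial translation, was at 104 ± 22.2 and 57.1 ± 18.7 CPM in WT fresh and vehicle cells (SD, n = 3; log2 fold change -0.87, adjusted p 0.37) and at -1.32 in KO (adjusted p 0.15). Gfm1, a mitochondrial elongation factor, was at 1.71 in KO (adjusted p 0.35), and Tufm, another, at 0.48 in WT (adjusted p 0.51).

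Medians were -0.14 in WT and -0.16 in KO for 20 genes of mitochondrial aminoacyl-tRNA synthesis, and -0.40 and -0.48 for 11 genes of mitochondrial DNA copying and transcription. Among 10 transcription factors and coactivators of mitochondrial genes they were -0.02 and 0.19. Of these, Nrf1 was at 77.7 ± 9.78 and 121 ± 7.16 CPM in WT fresh and vehicle cells (log2 fold change 0.63, adjusted p 0.64), and Pprc1, a coactivator of the PGC-1 family, at 0.71 in WT (adjusted p 0.51) and 1.44 in KO (adjusted p 0.19).

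Nuclear oxidative phosphorylation subunits had a median of 0.31 in WT, with 1 of 79 tested genes called, and of 0.20 in KO, with 0 called. For genes of cytosolic ribosomal proteins the median was -0.14 in WT, with 0 of 79 called, and -0.66 in KO, with 2 called lower. The differences between these lists and the 78 members were not tested.

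PSGL-1 against vehicle asks what the ligand adds to culture. It gave 0 called members of 78 by edgeR, DESeq2 and limma voom in both genotypes. Over all genes, edgeR called 0% and limma voom 0 genes in each, while DESeq2 called 229 of 14124 in WT and 41 in KO. Under an unadjusted 0.05 there were 3, 6 and 2 members in WT and 0, 1 and 3 in KO, while edgeR had 5.69% and 1.40% of all genes there. The median log2 fold change was -0.01 in WT, with 38 of 78 members above 0 against 40.2% of all genes. In KO it was -0.02, with 35 above 0 against 47.8%. In KO all 78 estimates were within 2-fold, from -0.56 to 0.70, and the 95% interval was inside 2-fold for 44 members. Libraries did not overlap for 1 member higher and 6 lower in KO (4.10% and 3.96% of all genes), and for 7 higher and 6 lower in WT (5.88% and 8.07%).

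Mrps26 was among the members with the smallest p under PSGL-1 in both genotypes, at a log2 fold change of -0.80 in WT and -0.47 in KO. In WT it was at 143, 168 and 176 CPM in vehicle and at 63.7 and 123 with PSGL-1. The lower value was that of the sparse library, WT PSGL-1 replicate 1. Mrpl14 was at 80.1, 101 and 78.8 CPM in WT vehicle and 47.6 and 42.7 in WT PSGL-1 libraries (log2 fold change -0.94, SE 0.37, adjusted p 0.77 by edgeR). Mrpl49 was at 38.8, 103 and 64.0 in vehicle and 204 and 73.8 with PSGL-1, the higher value being that of the sparse library (log2 fold change 1.01, adjusted p 0.77). Both libraries of Mrpl14 were low, whereas Mrpl49 was high in 1. With that sparse library as the only WT PSGL-1 sample, 13 members were called, 1 higher and 12 lower, or 16.7% against 19.7% of all genes in that fit, and without it 0. In KO, Mrps10 of the small-subunit head was at 62.2, 47.2 and 53.6 in vehicle and 85.4, 87.0 and 82.1 with PSGL-1 (0.64, adjusted p 1), and Mrpl24 was at -0.56 in KO.

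KO against WT, which compares the libraries by Selp genotype, gave 0 called members of 78 by edgeR, DESeq2 and limma voom. This held in fresh cells, in vehicle culture and with PSGL-1. By edgeR, 0.00708% of all genes were called in each of the 3. DESeq2 called 94, 111 and 245 of the 14124 genes, and limma voom 7, 3 and 0. Under an unadjusted 0.05 there were 0, 1 and 0 members in fresh cells, 2, 3 and 2 in vehicle culture, and 1, 2 and 2 with PSGL-1. By edgeR, 2.84%, 2.83% and 5.81% of all genes were there. Median log2 fold changes were 0.13, -0.05 and -0.07, with 50, 30 and 35 of 78 members above 0 against 48.8%, 49.8% and 57.4% of all genes. The fresh value became -0.23 when KO fresh replicate 1 was left out and 0.38 when replicate 2 was. The vehicle value became 0.09, with 44 members above 0, when WT vehicle replicate 3 was left out.

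Libraries of the genotypes did not overlap for 3 members higher and 1 lower in KO fresh cells (9.78% and 9.20% of all genes). In vehicle culture there were 4 higher and 3 lower (5.14% and 4.20%), and with PSGL-1 5 and 5 (10.8% and 6.92%). Mrpl4 was at 159, 141 and 154 CPM in WT fresh and 233 and 195 in KO fresh cells (log2 fold change 0.50, SE 0.24, adjusted p 1). Mrps5 was at 96.9, 123 and 85.3 in WT vehicle and 80.1, 64.8 and 58.6 in KO vehicle libraries (-0.58, SE 0.27, adjusted p 1). Both of these pairs of groups were apart, and neither passed the threshold. In vehicle culture the 95% interval was inside 2-fold for 44 of the 78 members, where smaller differences than that remain within the error. For the other members a 2-fold difference lies within the interval as well.

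With PSGL-1, Mrpl49 was at 204 and 73.8 CPM in WT and at 47.4, 62.2 and 79.5 in KO (log2 fold change -1.14, SE 0.46, adjusted p 0.76 by edgeR). Mrpl40 was at 13.1 and 94.3 in WT, the low value again in the sparse library, and at 111, 101 and 114 in KO (1.02, SE 0.61, adjusted p 0.76). For Mrpl49 the other WT library lay within the KO range, and for Mrpl40 it lay below all KO libraries. With the sparse library as the only WT PSGL-1 sample, 12 members were called, 11 higher and 1 lower in KO, or 15.4% against 19.8% of all genes, and without it 0.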

How the data were processed

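The deposited table holds raw read counts per gene and library, with no normalization by the authors. Per the submitters' processing notes, the tools were STAR 2.7.5c, featureCounts, MultiQC 1.10 and DESeq2 on mm10, and libraries were made from full-length amplified cDNA (SMART Ultra-Low Input kit), per the labels' protocols. No source used here states how multi-mapping reads, strand or molecular identifiers were handled, and a floor of 3 counts covers counting error only.

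Genes passing filterByExpr by group (14124 of 25239) were fitted in edgeR 4.0.16 (R 4.3.3): TMM scaling, 1 mean per group over all 16 libraries, robust quasi-likelihood tests, Benjamini-Hochberg adjustment over all tested genes, threshold 0.05. The common biological coefficient of variation was 0.977. Levels are TMM-scaled CPM ± SD; intervals are at 95%. No libraries of a group agreed within sampling noise (chi-square per degree of freedom at least 58.5). The code was tested on simulated counts with less spread than these data have. That run does not show which differences can be detected here. Alternatives were DESeq2 1.42.0, limma 3.58.1 voom with quality weights, RLE scaling, no filter or a filter at 5 CPM, the compared groups alone, replicate blocks and each library left out.

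Members and lists were chosen with earlier results of these data known. Named are called members, filled up in culture to 8 higher and 4 lower by smallest p (mean level in some group no lower than 5 CPM), 3 and 3 elsewhere, plus members of distinct role, the 5 highest and lowest per length, and up to 4 called or the 2 smallest-p genes of a list. Genes outside this rule were chosen after their values were seen: the members at 0 to 2 counts in the sparse library and the genes named as divergent neighbours or for overlapping starts. Lengths, exons and neighbours come from GENCODE vM21 (GRCm38), promoters from RefSeq.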

Additional observations from a re-analysis of the deposited data

How the results depend on the processing

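No member was called in any of the 8 comparisons by edgeR, DESeq2, limma voom, RLE scaling, either filter, the compared groups alone or either replicate block. Among fits that left out 1 library, calls ranged from 0 to 13 for PSGL-1 against vehicle in WT and from 0 to 12 for KO against WT with PSGL-1, in both cases through the fit without WT PSGL-1 replicate 2, which leaves only the sparse library and assumes that it varies like the other groups; there 19.7% and 19.8% of all genes were called, against 16.7% and 15.4% of the members. In those fits the median log2 fold change of the members ranged from 0.18 to 0.44 for culture in WT, from -0.12 to 0.42 for culture in KO, from -0.23 to 0.38 for fresh KO against WT and from -0.38 to 0.31 for the difference of the culture responses. The last 3 turned on which KO fresh library was left out, as did Mrpl34 (-0.90 to 0.22) and Mrpl53 (-1.27 to 0.37) in KO culture and Mrpl33 (-0.26 to 1.14) in fresh KO against WT; the cause was not tested.

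RLE scaling moved the WT culture median to 0.21 with 51 members above 0, and that of all genes to -0.13. With the replicate number as a block the WT and KO culture medians were 0.27 and 0.10, with 0 members called in any comparison and C1qbp still called in WT. Libraries of the same replicate number, or the same run of library numbers, deviated together by correlations of only -0.06 to 0.09. The numbers are therefore not taken to pair them. In KO PSGL-1 against KO vehicle, however, all 3 same-numbered pairs were at 0.06 to 0.07, against a mean of -0.03 for the other pairs. The labels do not say whether these libraries share a mouse or a day. Over all genes, edgeR called 231 in WT and 250 in KO culture, DESeq2 804 and 832, and limma voom 713 and 544. C1qbp passed in WT under 8 of 9 other settings that kept all its libraries and missed with the compared groups alone (adjusted p 0.065), and passed in KO by DESeq2 (adjusted p 0.010). The median standard error per member was 0.35 to 0.40, and 0.53 for the difference of the culture responses. With such errors even estimates close to 2-fold did not pass, such as Mrps27 in WT culture at a log2 fold change of 0.97. The absence of calls therefore does not exclude differences of that size.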

Other observations

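Within the KO fresh pair, members with shorter transcripts differed more often in 1 direction: 36 of the 39 members up to the median length were higher in replicate 1 (median log2 difference 0.81), and 27 of the 39 longer ones (0.68). The rank correlation of this difference with transcript length was -0.34 over the 78 members and -0.33 over 12836 coding genes, which share the same libraries and are not independent replicates. For vehicle against fresh the same correlation was -0.03 in WT and -0.02 in KO over the members, and 0.02 and 0.12 over the coding genes. For KO against WT fresh cells it was -0.07 over the members and -0.18 over the coding genes.

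The mean level of Mrpl genes divided by that of Mrps genes was 1.09 ± 0.04 in WT fresh libraries (SD, n = 3), 1.14 ± 0.04 in WT vehicle (n = 3), 1.17 ± 0.09 in KO vehicle (n = 3) and 1.21 ± 0.05 in KO PSGL-1 (n = 3). It was 1.20 and 1.20 in the KO fresh libraries, whose summed levels lay farthest apart, and 1.15 and 1.32 in WT PSGL-1, where the higher value belongs to the sparse library. These ratios were not tested.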
